A study of Mus musculus with 22 samples.

Results

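The 10 genes described here encode proteins of the neuromuscular junction and of the calcium release machinery of muscle: Chrna1, Chrnb1, Chrnd, Chrng, Musk, Rapsn, Ryr1, Cacna1s, Atp2a1 and Casq2. They were chosen by name, as the rows whose gene symbol matched one of these 10 exactly. All 10 had a row among the 34866 genes of the tables of cultured chondrocytes. In the table of cartilage tissue, which held 23911 genes, 7 of the 10 had a row, and Chrnd, Chrng and Cacna1s had none.

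At the neuromuscular junction, acetylcholine released by the motor nerve opens a receptor channel in the muscle membrane. The fetal form of that receptor is built from alpha, beta, gamma and delta subunits, and a kinase and a scaffold protein gather it under the nerve ending. Inside the fibre, the resulting depolarisation moves a voltage sensor in the transverse tubule, which opens the release channel of the sarcoplasmic reticulum, and a calcium pump then refills that store. These genes are known chiefly from skeletal muscle and are not part of the usual description of chondrocytes.

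The study compared mice with and without Dnmt1, the maintenance DNA methyltransferase, in 22 samples of 6 groups. Control samples carried the Dnmt1 flox genotype, and the labels do not say whether they also carried a Cre. The conditional knockout (cKO) samples were Prrx1-Cre;Dnmt1 flox/flox, and Prrx1-Cre is known to act in the limb bud mesenchyme that gives rise to several tissues besides cartilage. Primary chondrocytes from the knee articular cartilage of mice of postnatal day 3 to 5 were sampled at day 0 (3 control and 3 cKO cultures, with no treatment in their labels) and at day 3 of culture with the growth factor BMP2, which drives chondrocyte differentiation and was used at 100 ng/µl per the labels (4 control and 4 cKO cultures). Cartilage came from mice of postnatal day 5, treated with collagenase against connective tissue, with 4 control samples (labelled flox) and 4 cKO samples (labelled cKO), of which replicates 1 and 2 were male and replicates 3 and 4 female. The cultures carried no sex or litter label, and p-values for all groups measure the spread between these samples.

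Day 0 libraries held 41749327 to 51741478 counts, day 3 libraries 14434197 to 18918714 and cartilage libraries 1100198 to 1888896. Levels below are CPM (counts scaled to a common library size over all 14 cultures), and a library with at most 3 counts of a gene was treated as being at the floor for that gene. Dnmt1, the targeted gene, was lower in cKO samples in each setting (log2 fold change -2.44 at day 0, -1.41 at day 3 and -1.66 in cartilage, adjusted p = 1.62e-08, 0.00625 and 6.34e-05). Summed CPM of 6 chondrocyte markers, Col2a1 and Acan among them, ranged over 124186 to 131459 in the day 0 controls, 46715 to 56744 in the day 0 knockouts and 80192 to 98566 in the day 3 controls. At day 3 cKO replicate 4 stood apart: its summed chondrocyte markers were 1090 CPM against 10757 to 15215 in the other 3 cKO libraries. Some results are also given without that replicate, mainly counts of called genes. Most fold changes, count ratios and fold bounds that use the day 3 cKO cultures are given only with it. In bulk RNA, fewer cells of a type and less RNA per cell cannot be told apart.

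In the mouse genome (GRCm38, GENCODE M21 annotation), Chrnd (chr1:87190607-87200070) and Chrng (chr1:87204657-87212694) are neighbours on the plus strand, 4586 bases apart. Chrna1 (chr2:73563215-73580338) and Rapsn (chr2:91035620-91045729) share chromosome 2, and Ryr1 (chr7:29003344-29125179) and Atp2a1 (chr7:126445858-126463108) share chromosome 7. Cacna1s (chr1:136052750-136119822) lies far from the receptor pair on chromosome 1. Chrnb1 (chr11:69784036-69795943), Musk (chr4:58285960-58374303) and Casq2 (chr3:102086415-102146514) each lie on a chromosome of their own.

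Promoters are shown for 4 of the genes because all 10 rose together in cKO cultures at day 3 (below), and because E-boxes (CANNTG) are the sites read by the myogenic factors of the MyoD family. A RefSeq promoter window on GRCm38.p6, 250 bases before to 50 bases after the start site, was matched for 8 of the 10 genes. The 250 bases before the start are printed 5′ to 3′ on the strand of the gene, with each CANNTG in capitals. For Chrng the RefSeq start lies downstream of the GENCODE start given above, so its window falls inside that gene span. Chrna1, Chrng and Musk hold the form CAGCTG, and Ryr1 is the window of the 8 with no CANNTG.
Chrna1, chr2:73580339-73580588, minus strand: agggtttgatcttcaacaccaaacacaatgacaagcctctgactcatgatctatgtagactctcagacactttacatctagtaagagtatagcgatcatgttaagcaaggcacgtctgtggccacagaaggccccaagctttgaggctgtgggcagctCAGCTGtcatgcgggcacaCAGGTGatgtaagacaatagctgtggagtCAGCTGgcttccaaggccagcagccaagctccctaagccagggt
Chrng, chr1:87205561-87205810, plus strand: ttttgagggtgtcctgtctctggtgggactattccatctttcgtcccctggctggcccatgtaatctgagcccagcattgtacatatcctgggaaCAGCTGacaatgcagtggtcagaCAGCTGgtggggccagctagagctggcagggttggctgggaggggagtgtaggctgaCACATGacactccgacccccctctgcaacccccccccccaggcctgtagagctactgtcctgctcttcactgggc
Musk, chr4:58285712-58285961, plus strand: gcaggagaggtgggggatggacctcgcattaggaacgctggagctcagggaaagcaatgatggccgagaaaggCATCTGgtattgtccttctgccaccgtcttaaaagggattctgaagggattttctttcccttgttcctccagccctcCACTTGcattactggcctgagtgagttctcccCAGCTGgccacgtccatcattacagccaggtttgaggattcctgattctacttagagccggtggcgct
Ryr1, chr7:29125152-29125401, minus strand: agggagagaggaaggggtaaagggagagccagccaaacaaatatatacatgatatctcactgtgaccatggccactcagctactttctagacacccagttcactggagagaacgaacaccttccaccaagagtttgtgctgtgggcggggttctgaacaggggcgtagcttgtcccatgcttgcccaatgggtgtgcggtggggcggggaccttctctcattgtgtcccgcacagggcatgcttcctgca

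The motif CAGCTG, which reads the same on both strands, occurred in 5 of the 8 windows, against 16.3% of 32851 promoter windows of the same length. Counted from the RefSeq start site, it began at -92 and -44 in Chrna1, at -155 and -132 in Chrng, at -68 in Musk, at -123 in Cacna1s and at -55 in Atp2a1. The looser CANNTG, of which CAGCTG is a form, occurred in 7 of the 8 windows and in 72.3% of all promoters. CCGGAA on either strand, the core of the N-box known from synaptic genes of muscle, occurred in 0 of the 8 windows and in 14.9% of all promoters. These matches describe the letters in the windows, and no binding was measured.

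At day 3 all 10 genes were higher in cKO than in control cultures, in edgeR's quasi-likelihood test with Benjamini-Hochberg adjustment over all genes tested (adjusted p below 0.05). Of the 13924 genes tested there, 25.5% were called higher in cKO, 22.6% lower and 48.1% in either direction. The median log2 fold change of the 10 was 7.69, against 0.0110 over all genes tested. Without cKO replicate 4 the 10 were also called higher, with a median of 8.01. Of the 10, 5 were at the floor in every day 3 control library: Chrnd, Chrng, Musk, Cacna1s and Casq2. These 5 passed the filter on low counts through the cKO group alone. Their fitted values enter both medians and depend on the prior count. Each of the 10 had every cKO library above every control library, a pattern met by 24.4% of all genes tested.

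**Figure D1:**
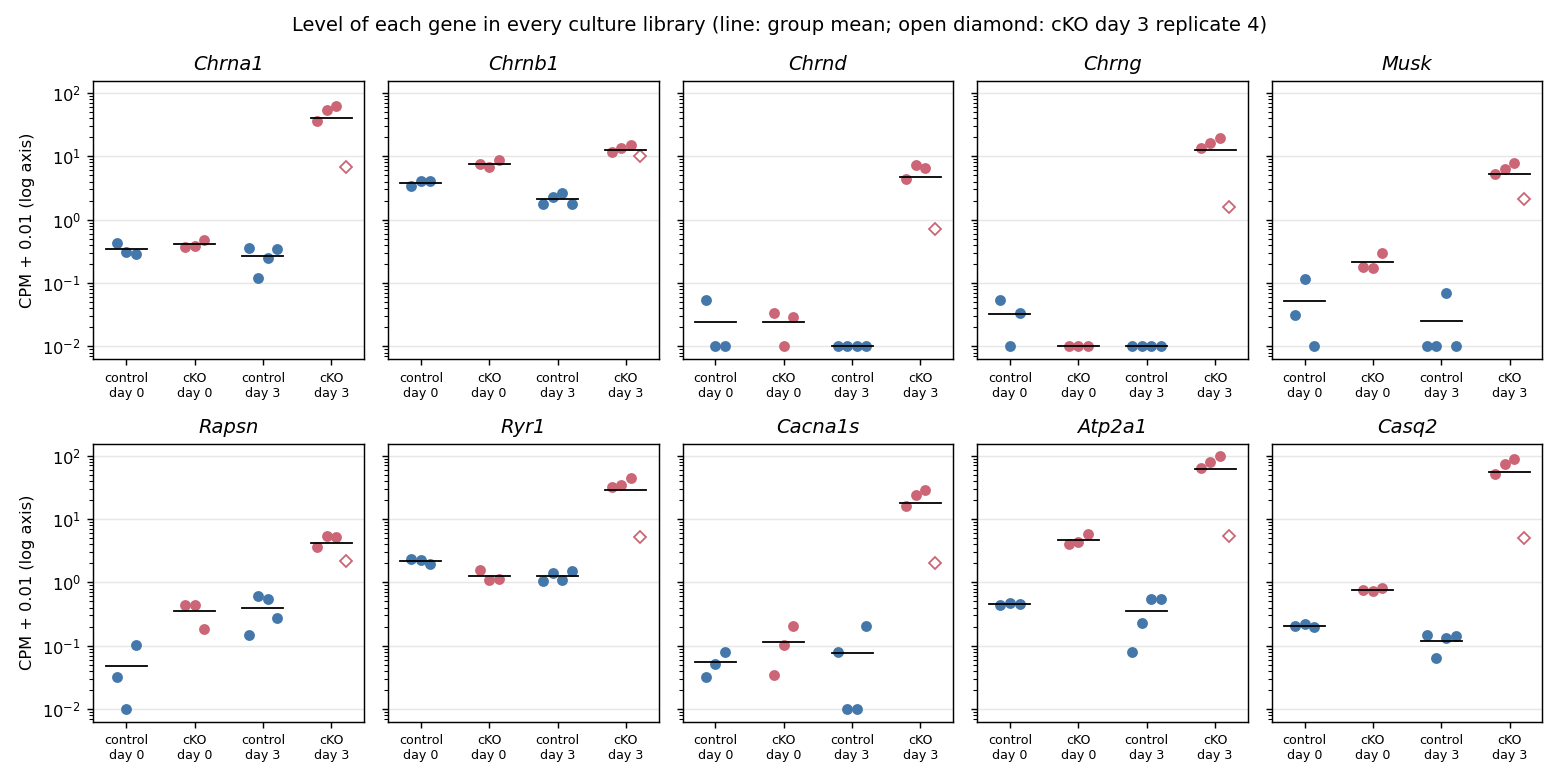
Level of each of the 10 genes in the 14 culture libraries, as CPM + 0.01 on a log axis, by genotype and day, with a line at each group mean and an open diamond for cKO day 3 replicate 4. In every panel the 4 cKO libraries of day 3 lie above the 4 control libraries of day 3, and the open diamond is the lowest of the 4.

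Among the receptor subunits, Chrna1 encodes the alpha subunit, which binds acetylcholine. Chrna1 read 0.343, 0.109, 0.240 and 0.330 CPM in control cultures at day 3 and 36.3, 53.5, 61.5 and 6.75 CPM in cKO cultures. Replicate 4 was the lowest cKO library and still exceeded the highest control. The log2 fold change was 7.28 (SE 0.818, adjusted p = 2.05e-04). All 22 estimated values of Chrna1 were fractional, and its annotated transcripts share at least 50 bases at 90% identity or more with 540 other genes, so how its reads were divided is uncertain. The same holds in part for Ryr1, which shares such stretches with 88 other genes and had fractional values in 14 of 22 libraries, and for Chrnd, with 380 genes and 3 of 22.

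Chrnb1, the beta subunit gene, was the member already well measured in controls. It read 1.78, 2.28, 2.58 and 1.78 CPM in control cultures at day 3 and 11.6, 13.4, 15.3 and 10.3 CPM in cKO cultures. Its cKO libraries lay close together, replicate 4 included. Its log2 fold change was 2.59 (SE 0.185, adjusted p = 2.35e-05), the smallest of the 10.

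The gamma subunit gene Chrng marks the fetal receptor, in which gamma takes the place that epsilon holds in the adult form. Chrng had 0 counts in each of the 4 control libraries at day 3 and 244, 326, 378 and 27 counts in the cKO libraries. The mean of the cKO libraries was at least 62.1-fold higher, taking 3 counts per library as the floor (adjusted p = 0.00313). This bound and the others of its kind below hold for the group mean and not for each library. Chrne, the epsilon subunit gene, had 0, 3, 1 and 0 counts in the same cKO libraries and 2, 1, 2 and 4 in the controls, so Chrng made up at least 97.8% of the pair per kb of exon in each cKO library. Chrnd, the delta subunit gene next to Chrng, also had 0 counts in each control library and 79, 146, 126 and 12 counts in the cKO libraries, at least 23.0-fold higher (adjusted p = 0.00376).

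Musk encodes the receptor tyrosine kinase that responds to nerve-derived agrin, and Rapsn encodes rapsyn, the scaffold beneath the receptor clusters. Musk had 0, 0, 1 and 0 counts in control and 93, 126, 149 and 37 counts in cKO cultures at day 3. The count ratio was 352 (exact 95% counting interval 62.9 to 13945, covering counting error only; adjusted p = 7.83e-05). Rapsn was detected in controls, at 0.137, 0.597, 0.540 and 0.264 CPM, and read 3.60, 5.38, 5.27 and 2.19 CPM in cKO cultures. Its log2 fold change of 3.37 (SE 0.450, adjusted p = 4.87e-04) was below that of the other 9 genes apart from Chrnb1.

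Cacna1s encodes the pore subunit of the voltage sensor (Cav1.1), and Ryr1 the calcium release channel that it opens in skeletal muscle. Cacna1s had 1, 0, 0 and 3 counts in control and 288, 487, 556 and 35 counts in cKO cultures at day 3, a count ratio of 297 (exact 95% counting interval 116 to 1092; adjusted p = 5.74e-04). Ryr1 read 1.03, 1.41, 1.08 and 1.52 CPM in controls and 31.4, 34.5, 44.7 and 5.13 CPM in cKO cultures. The Ryr1 groups did not overlap, and the log2 fold change was 4.52 (SE 0.624, adjusted p = 5.74e-04). Per kb of exon, Ryr1 made up at least 98.7% of the sum of Ryr1 and Ryr3 in each cKO library at day 3.

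Atp2a1 encodes the fast-twitch calcium pump SERCA1, and Casq2 encodes calsequestrin 2, a calcium-storing protein of the sarcoplasmic reticulum known as the cardiac form and also made in skeletal muscle. Atp2a1 read 0.0685, 0.217, 0.540 and 0.528 CPM in control and 64.7, 79.8, 97.4 and 5.30 CPM in cKO libraries of day 3 (log2 difference 7.48, SE 1.01, adjusted p = 5.23e-04). Casq2 had 2, 1, 2 and 2 counts in control and 905, 1476, 1695 and 87 counts in cKO cultures, a count ratio of 517 (exact 95% counting interval 251 to 1287; adjusted p = 3.45e-04). Both genes were thus near absent from controls and among the most abundant members in cKO replicates 1 to 3. Exons of Atp2a1 overlap those of Rabep2 on the opposite strand, and exons of Rapsn, Ryr1 and Cacna1s also overlap annotated opposite-strand genes, so without a stated strand setting reads of these partners cannot be told apart. Rabep2 lay between 18.6 and 20.3 CPM in the day 3 controls and between 16.8 and 23.1 CPM in the knockouts (fitted log2 difference 0.07, adjusted p = 0.611).

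**Figure D2:**
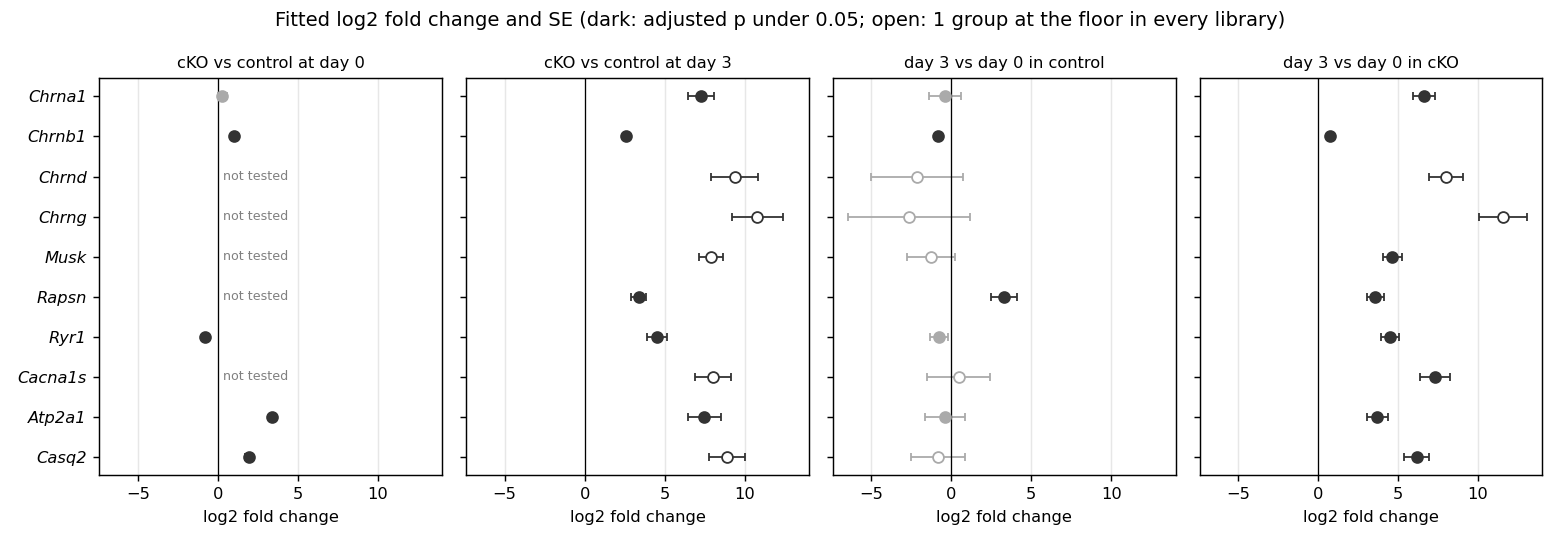
Fitted log2 fold change of the 10 genes with its SE, for cKO over control at day 0 and day 3 and for day 3 over day 0 in each genotype; dark points had an adjusted p under 0.05, and open points have a group at the floor in every library, so their position depends on the prior count and bounds nothing. All 10 points are dark and to the right of 0 at day 3 and in the cKO day change, while 2 are dark in the control day change. An error bar shorter than the point is hidden by it.

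Compared per kb of exon, the order of the levels in cKO cultures at day 3 was led by Casq2 (19.9 CPM per kb ± 13.3, SD, n = 4) and Atp2a1 (17.8 ± 11.5), followed by Chrna1 (9.01 ± 5.53), Chrnb1 (5.00 ± 0.868), Chrng (3.07 ± 1.89), Cacna1s (2.72 ± 1.80), Rapsn (2.28 ± 0.842), Chrnd (1.44 ± 0.894), Musk (1.41 ± 0.630) and Ryr1 (1.33 ± 0.772). Each difference between neighbours in that order was smaller than the sum of their SDs. Casq2, Atp2a1, Chrna1, Chrnb1, Chrng, Cacna1s and Rapsn held the first 7 places in that order in replicates 1, 2 and 3. In replicate 4 Chrnb1 led with 4.05 CPM per kb, and Casq2 followed with 1.83. Chrnb1 also led in the controls, with 1.5 ± 0.141 CPM per kb (n = 3) at day 0 and 0.832 ± 0.156 (n = 4) at day 3. In cKO cultures at day 0 Chrnb1 stood at 3.03 ± 0.397 CPM per kb (n = 3), ahead of Atp2a1 at 1.36 ± 0.281.

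The shares of paralogs per kb of exon differed between the day 3 cKO libraries. Casq2 made up 40.7, 48.3, 42.1 and 43.1% of the sum of Casq2 and Casq1, the skeletal calsequestrin, so replicate 4 lay within the range of the others. Atp2a1 made up 23.0, 25.9, 29.6 and 2.0% of the sum of Atp2a1 and Atp2a2, the pump gene found in many cell types, and replicate 4 lay below the others there. In cKO cultures at day 0 the Casq2 share was 18.3 to 22.8% and the Atp2a1 share 1.31 to 1.88%. In control cultures at day 0 they were 6.22 to 10.1% and 0.127 to 0.139%.

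Replicate 4 of the day 3 cKO cultures was below the mean of replicates 1 to 3 in each of the 10 genes, by unequal amounts. Atp2a1 stood at 6.58% of that mean, Casq2 at 7.09%, Cacna1s at 8.74%, Chrng at 9.43%, Chrnd at 11.4%, Chrna1 at 13.4% and Ryr1 at 13.9%. Musk (33.3%), Rapsn (46.1%) and Chrnb1 (76.3%) were less reduced. Its Dnmt1 level was 35.5% of that mean. In all 10 genes replicate 4 remained above the highest control library of day 3.

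**Figure D3:**
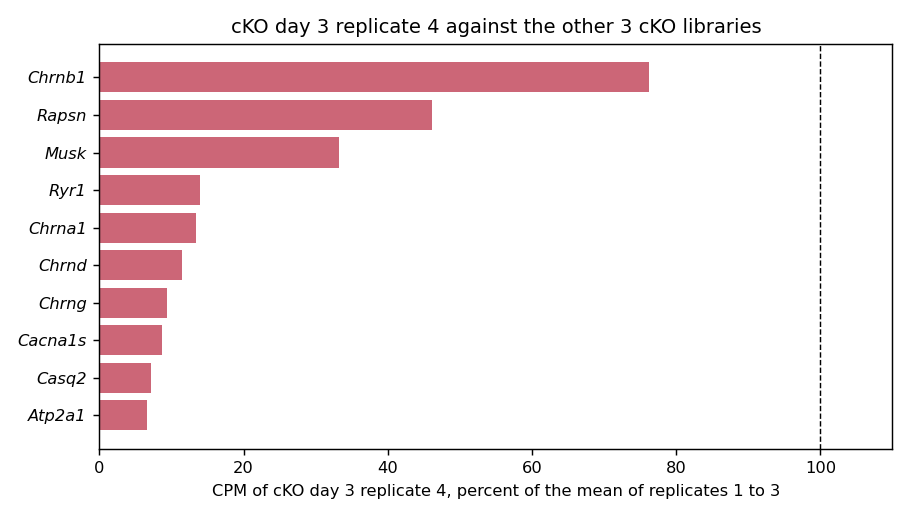
CPM of cKO day 3 replicate 4 as a percent of the mean of cKO replicates 1 to 3 for the 10 genes, with bars from 0 and a dashed line at 100. The bars run from 6.58% for Atp2a1 to 76.3% for Chrnb1.

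Skeletal muscle markers moved with these genes. The summed CPM of 14 markers (such as Myod1, Myog, Des, Myh3 and Ttn) at day 3 lay between 2.70 and 3.54 in control cultures and stood at 1351, 1835, 2243 and 175.5 in cKO cultures, replicate 4 last. Of the 11 markers tested, 11 were called higher in cKO. Over all genes tested at day 3, 25.5% were called higher and 22.6% lower. Of the 14 markers, 8 were at the floor in every day 3 control library. Those of the 8 that were tested passed the filter on low counts through the cKO group alone. Myf5 was at 0 in each of the 4 cKO libraries of day 3, and Pax7 was at the floor in each, with at most 2 counts. In each control library of that day Myf5, Pax7 and Actc1 were at 0. At day 0 the control sums lay between 13.9 and 15.3 CPM and the cKO sums between 75.7 and 80.4 CPM. Their part in the levels of the 10 genes was not tested. Of the cardiac list, which holds 6 genes, 0 of 2 tested were higher and 1 was lower at day 3 (controls between 1.41 and 2.51 CPM in sum, cKO between 0.887 and 1.53), and Myl7 was at 0 in all 4 cKO libraries. Schwann cell markers at day 3 summed to between 16.2 and 20.9 CPM in controls and between 42.2 and 48.4 CPM in cKO replicates 1 to 3, with replicate 4 at 30.3 CPM (1 of 3 tested was higher and 1 lower). Neuronal markers summed to between 19.3 and 38.2 CPM in controls and between 9.68 and 15.5 CPM in cKO libraries (1 of 2 tested was higher and 1 lower). Smooth muscle markers summed to between 104 and 130 CPM in controls and between 143 and 152 CPM in cKO replicates 1 to 3, while cKO replicate 4 stood at 450 CPM (3 of 4 tested were higher and 1 lower).

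The myogenic factors themselves followed different courses. Myod1, which commits cells to the muscle lineage, had 0 counts in each control library at day 0 and read 13.8, 8.27 and 12.1 CPM in cKO cultures, at least 164-fold higher (adjusted p = 1.77e-06). Myog, which acts later in muscle differentiation, had at most 1 count in each day 0 library of either genotype. At day 3 Myog read 42.4, 61.7, 68.7 and 3.17 CPM in cKO cultures and at most 0.0685 CPM in controls. The day 0 cKO cultures therefore had Myod1 RNA with Myog, Chrng and Chrnd at the floor.

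At day 0, in cultures with no BMP2 in their labels, 5 of the 10 genes had enough counts to be tested, and 3 of them were higher in cKO cultures and 1 lower. Over all 15530 genes tested at day 0, 33% were called higher, 31.6% lower and 64.5% in either direction, so 4 calls among 5 tested genes stood near the background. The median log2 fold change of the 5 was 1.01, against 0.00958 over all genes tested. The filter on low counts favours genes that are high in a group, so these 5 do not stand for all 10.

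Atp2a1, the calcium pump gene, had the largest difference at day 0: it read 0.437, 0.465 and 0.439 CPM in control and 4.06, 4.25 and 5.84 CPM in cKO cultures. Its log2 fold change was 3.39 (SE 0.198, adjusted p = 8.97e-07). Rabep2, its neighbour on the opposite strand, went the other way (log2 fold change -0.34, adjusted p = 5.03e-04). Casq2 read 0.197, 0.211 and 0.185 CPM in control and 0.745, 0.712 and 0.815 CPM in cKO cultures (log2 fold change 1.92, SE 0.252, adjusted p = 1.34e-04). Chrnb1 read 3.39, 3.99 and 4.02 CPM in control and 7.66, 6.68 and 8.69 CPM in cKO cultures (log2 fold change 1.01, SE 0.122, adjusted p = 7.69e-05). In these 3 genes every cKO library lay above every control library, as in 36.2% of all genes tested.

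Ryr1 differed in the opposite direction at day 0. The release channel gene read 2.34, 2.26 and 1.96 CPM in control and 1.59, 1.08 and 1.13 CPM in cKO cultures, with no overlap (log2 fold change -0.80, SE 0.186, adjusted p = 0.00428). When all 14 cultures were fitted together, Ryr1 (log2 fold change -0.79, adjusted p = 0.266) and Casq2 (1.92, adjusted p = 0.141) no longer passed the threshold. Chrna1 read 0.415, 0.296 and 0.277 CPM in control and 0.360, 0.367 and 0.466 CPM in cKO cultures, and the groups overlapped (log2 fold change 0.27, SE 0.292, adjusted p = 0.436).

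The other 5 genes fell below the filter at day 0. Rapsn had 1, 0 and 4 counts in control and 18, 19 and 9 counts in cKO libraries. Without the filter it was called higher (log2 fold change 3.11, SE 0.750, adjusted p = 0.00273). Musk had 1, 5 and 0 counts in control and 7, 7 and 15 in cKO libraries, and without the filter it had an adjusted p of 0.0379 in edgeR and 0.0710 in DESeq2. Cacna1s had 1, 2 and 3 counts against 1, 4 and 10, which overlapped. Chrnd and Chrng had at most 2 counts in any day 0 library, so a difference in them was not detectable at this depth.

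The change from day 0 to day 3 was tested in each genotype. In cKO cultures all 10 were higher at day 3 (median log2 fold change 5.40, against 0.0202 over all genes), where 32.4% of the 14909 genes tested were called higher, 29.8% lower and 62.2% in either direction. In control cultures 1 of the 10 was called higher, Rapsn, and 1 lower, Chrnb1. The median of the 10 was -0.82, against 0 over all genes. Of all genes tested, 28.1% were called higher, 28.8% lower and 56.9% in either direction. With control cultures fitted alone, 2 of the 10 passed the filter on low counts, Chrnb1 and Ryr1, and both were called lower. The others, Rapsn among them, entered the control test through their cKO counts. Chrng and Chrnd were at the floor in every cKO library of day 0, so they were tested through their day 3 cKO counts. Chrnd, Chrng and Cacna1s were at the floor in every control library of both days. The fitted values of these genes enter the medians and depend on the prior count. These day changes use the same libraries as the genotype comparisons and are not separate evidence. Day 0 and day 3 also differ in BMP2 treatment and in sequencing depth, which cannot be told apart from the day itself.

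In the day change of cKO cultures, Chrng went from 0 counts in each day 0 library to 27 to 378 counts, at least 177-fold (adjusted p = 2.45e-04). Chrnd went from 1, 0 and 1 counts to 12 to 146, a count ratio of 333 (exact 95% counting interval 91.5 to 2759; adjusted p = 1.17e-04). The log2 change was 7.31 for Cacna1s, 6.61 for Chrna1, 6.15 for Casq2, 4.65 for Musk, 4.52 for Ryr1, 3.71 for Atp2a1, 3.57 for Rapsn and 0.72 for Chrnb1. In Atp2a1 replicate 4 of day 3 (5.30 CPM) lay within the range of the day 0 cKO libraries, and in the other 9 genes the day 3 libraries all lay above the day 0 libraries. The share of all genes with that separation was not counted, and 32.4% of genes tested were called higher in this change.

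In the day change of control cultures, Rapsn rose from 0.0219, 0 and 0.0924 CPM to between 0.137 and 0.597 CPM (log2 fold change 3.28, SE 0.803, adjusted p = 0.00354). That rise rests on 5 counts in all at day 0, and Rapsn did not pass the filter with control cultures fitted alone. Chrnb1 fell from 3.39, 3.99 and 4.02 CPM to between 1.78 and 2.58 CPM (log2 fold change -0.84, SE 0.175, adjusted p = 0.00115). Ryr1 had a log2 change of -0.79 (adjusted p = 0.251), and the groups did not overlap. It passed the threshold with control cultures fitted alone (adjusted p = 0.00594) and without cKO day 3 replicate 4, which enters this fit through the shared spread (adjusted p = 0.00375). The other 7 genes did not pass the test.

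The genotype effect was compared between the days by the interaction term over the 14 cultures, and 5 of the 10 genes had a larger cKO effect at day 3. Over all genes tested, 9.94% were called in that direction, 6.89% in the opposite one and 16.8% in either. The difference of the log2 effects was 7.02 for Chrna1 (adjusted p = 0.00160), 7.0 for Casq2 (0.0168), 5.93 for Musk (0.0216), 5.31 for Ryr1 (7.75e-04) and 1.56 for Chrnb1 (0.00107). Atp2a1 (4.10, adjusted p = 0.0512), Cacna1s (6.85, adjusted p = 0.0811), Chrng (adjusted p = 0.0963) and Chrnd (adjusted p = 0.111) did not pass, although all 4 had an unadjusted p under 0.05, and all 4 passed in DESeq2 (adjusted p = 0.00200, 4.09e-04, 8.72e-08 and 4.79e-04). Without cKO day 3 replicate 4, 9 of the 10 passed, and without control day 0 replicate 2, 3 of the 10 passed. Rapsn stood out with a difference of 0.29 (SE 1.90, adjusted p = 0.944), an error too wide to show that its effect was alike on both days.

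Genes of the same pathways outside these 10 were taken from a list of 15 neuromuscular junction genes and a list of 28 genes of the triad and of calcium handling. At day 3, 8 of 13 junction genes tested were higher in cKO cultures and 1 was lower. Their median log2 fold change was 0.62, against 0.0110 over all genes tested. Of all genes tested at day 3, 25.5% were called higher and 22.6% lower. Erbb3, a neuregulin receptor (3.69), Dok7, the activator of MuSK (3.49), Nrg1, neuregulin 1 (3.32), Colq, the collagen tail of acetylcholinesterase (2.42), and Col13a1, a junctional collagen (1.90), led. Smaller differences were found for Lrp4, the agrin receptor (1.05), and Agrn, agrin (0.62). Lamb2, a laminin of the synaptic basal lamina, was lower (-0.61, adjusted p = 0.0462). Without cKO replicate 4 the count was again 8 higher and 1 lower of 13.

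Of the triad list, 15 of 22 genes tested were higher at day 3 and 2 were lower, against 25.5% and 22.6% of all genes tested. The median was 1.52, against 0.0110 over all genes tested. Trdn, triadin, which anchors calsequestrin to the release channel, had 0 counts in the control libraries and was at least 49.7-fold higher. Cacng1, the gamma subunit of the voltage sensor, had a count ratio of 813 (exact 95% counting interval 146 to 32149). Jsrp1, a protein of the junctional reticulum, had one of 105 (44.9 to 326). Trdn, Cacng1 and Jsrp1 were at the floor in every day 3 control library and passed the filter on low counts through the cKO group alone. Their fitted values enter the median and depend on the prior count. The log2 fold change was 6.44 for Casq1, 5.95 for Hrc, a calcium-binding protein of the reticulum, 3.71 for Srl, sarcalumenin, 3.51 for Stac3, which the voltage sensor needs, 2.46 for Jph2 and 1.64 for Jph1, the junctophilins that tie the tubule to the reticulum. Asph (-0.35) and Orai1 (-0.46) were lower. Without cKO replicate 4, 25 genes passed the filter, of which 18 were higher and 3 lower.

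**Figure D4:**
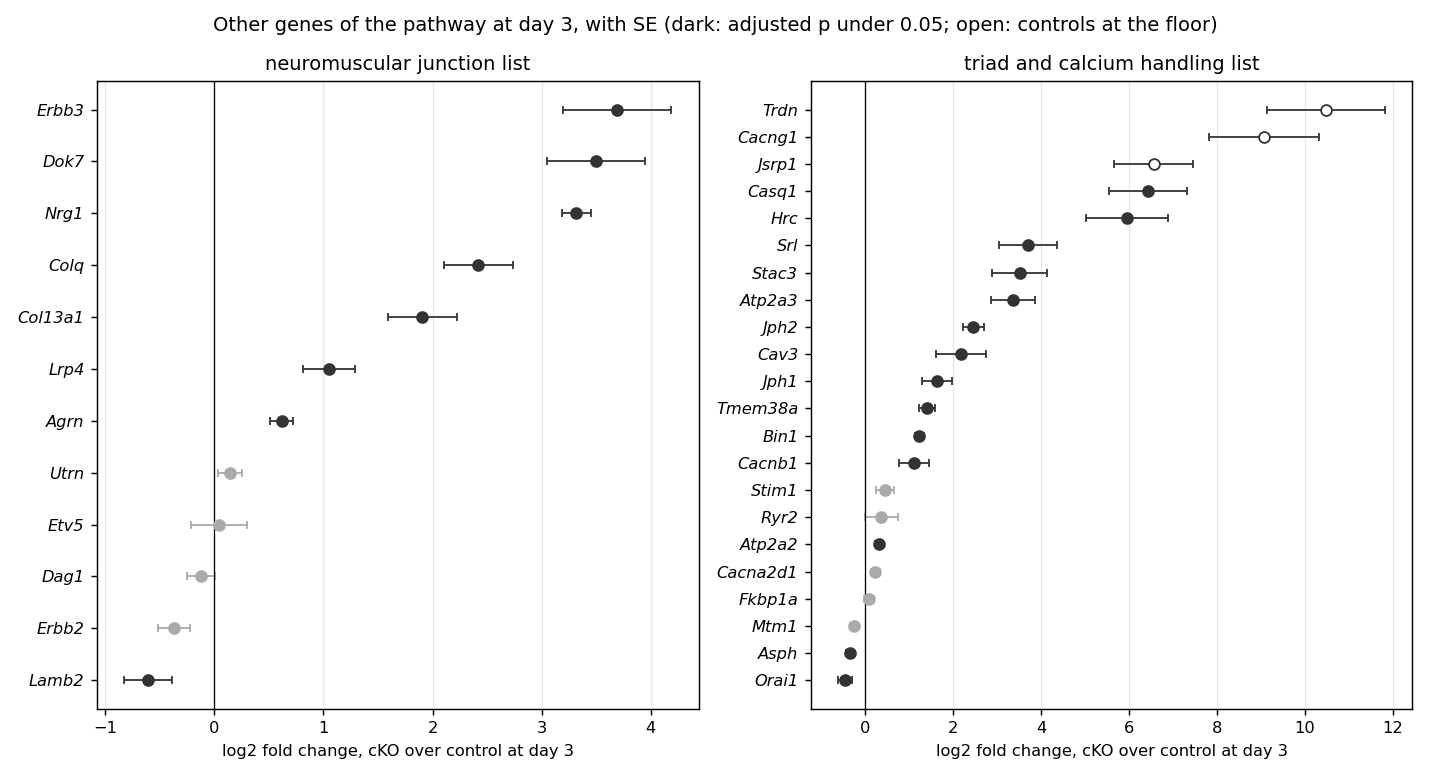
Fitted log2 fold change with its SE, cKO over control at day 3, for tested genes of the neuromuscular junction list (left, 12 of the 13 tested) and of the triad and calcium handling list (right, 22 genes), which have different x axes; dark points had an adjusted p under 0.05, and open points have controls at the floor, so their position bounds nothing. Erbb3 (3.69) and Dok7 (3.49) lead on the left, Trdn and Cacng1 on the right, and Lamb2 (-0.61), Asph (-0.35) and Orai1 (-0.46) are the dark points below 0.

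At day 0 the calls of both lists fell on both sides: 4 of 12 junction genes tested were higher and 5 lower (median 0.02), and 8 of 19 triad genes were higher and 5 lower (median 0.19). Over all genes tested at day 0, 33% were called higher and 31.6% lower (median 0.00958), so these counts stood near the background. Lrp4 and Agrn changed sides between the days: Lrp4 was lower in the day 0 knockouts (log2 difference -1.07, SE 0.0859, adjusted p = 5.73e-06) and higher at day 3 (SE 0.237, adjusted p = 0.00662), and Agrn was lower at day 0 (-0.40, SE 0.0289, adjusted p = 2.94e-06) and higher at day 3 (SE 0.103, adjusted p = 0.00152). The difference between the days passed the interaction test for both (Lrp4 2.10, adjusted p = 7.70e-04; Agrn 0.996, adjusted p = 1.93e-04). Erbb3 (1.64) and Nrg1 (1.64) were higher at day 0 already.

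The genes whose pattern over the 14 cultures was closest to the mean pattern of the 10, by the root mean square difference of centred log2(CPM + 0.5), included Rbm24 (0.204), Xirp1 (0.238), Trdn (0.241) and Tmod1 (0.265). Among the 10 themselves Chrng (0.342) and Musk (0.382) lay nearest to their shared mean pattern and Chrnb1 (1.18) farthest from it. Rbm24 read 0.0286 CPM ± 0.0331 (SD, n = 4) in control and 8.46 ± 5.17 (n = 4) in cKO cultures at day 3.

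In cartilage 0 of the 10 genes had enough counts to be tested after edgeR's filter. Without the filter in edgeR, and by DESeq2, 7 were tested, 0 were called and 0 had an unadjusted p under 0.05. In the table of estimated counts 1 of the 10 passed the filter, Chrna1, with values that summed to 47.3 in control and 46.9 in cKO cartilage, and it was not called (unadjusted p = 0.810). Over all 8793 genes tested in cartilage, 3.15% were called higher, 3.04% lower and 6.19% in either direction. In the whole-number counts Chrnb1 had the most, 0 to 5 per control library and 1 to 5 per cKO library, summing to 10 and 9. In the same table, over the 4 libraries of each genotype, Ryr1 summed to 7 counts in control and 3 in cKO cartilage, Musk to 1 and 4, Casq2 to 1 and 2, Chrna1 to 1 and 2, Rapsn to 1 and 1, and Atp2a1 to 0 and 1.

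Differences of a few counts were not detectable in cartilage at this depth, where 3 counts correspond to 1.59 to 2.73 CPM. Atp2a1, at 64.7 to 97.4 CPM in replicates 1 to 3 of the day 3 knockout cultures, lay far above that floor. It had at most 1 count in each cartilage library. Rapsn (3.60 to 5.38 CPM), Chrnd (4.44 to 7.21) and Musk (5.23 to 7.77) lay nearer to the floor in those replicates. In replicate 4 Chrnd (0.692 CPM), Chrng (1.56), Cacna1s (2.02), Musk (2.13) and Rapsn (2.19) lay within or below its range. Cultures and cartilage were normalised separately and made with different library methods. The 14 skeletal muscle markers, of which 11 had a row, summed to between 17.5 and 22.5 CPM in control cartilage. In cKO cartilage they summed to between 67.8 and 104 CPM. Of the 11, 8 were at the floor in every control library and 6 in every cKO library, so the sums rest on few genes. Of 2 markers tested, 2 were called higher, against 3.15% of all genes tested. All 4 control libraries lay in 1 sequencing pool and all 4 cKO libraries in another, so pool and genotype cannot be told apart. Of the pathway lists, 1 of 8 junction genes tested was lower in cKO cartilage, Lamb2 (-0.64), and 0 of 9 triad genes were called, with 0 at an unadjusted p under 0.05.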

How the data were processed

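RNA was sequenced from 14 chondrocyte cultures (stranded kit) and 8 cartilage samples (barcoded 3′ method with unique molecular identifiers), per the labels' protocols. For the cultures the authors' tables hold deposited estimated counts, rounded here before testing, and for cartilage deposited whole-number counts, with estimated counts as an alternative. The submitters' processing notes name GRCm38, and for cartilage UMI-tools 1.1.1, Trim Galore 0.6.7, HISAT2 2.2.1, featureCounts 2.0.1 and DESeq2 1.34.0; the culture aligner and strand setting are not given in the sources used here. The table with whole-number counts was used for cartilage although the plan of tests called it estimated.

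Symbols were matched by Ensembl identifier (34582 of 34866 in cultures). Genes passing edgeR's filterByExpr were tested by its quasi-likelihood test (edgeR 4.0.16, TMM scaling, adjusted p under 0.05) per setting, with sex as a covariate in cartilage, and in 1 fit of 14 cultures for day changes and the interaction. SE is the log2 fold change over the root of F. The scripts were tested on simulated data. Alternatives were DESeq2 1.42.0, RLE scaling, no filter, a replicate block, other sample sets and leaving out each replicate. Named were the 10 genes, Dnmt1, Myod1, Myog, the called genes of 2 pathway lists by size of change, and the 5 nearest genes; 2 genes that these rules name are not reported here. The 10 genes and all lists were chosen with earlier results of these data known.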

Additional observations from a re-analysis of the deposited data

Results flagged for a closer look

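In 5 of the 10 genes the difference between cKO and control cultures was itself different at day 3 and day 0, by the interaction term of edgeR's quasi-likelihood test with Benjamini-Hochberg adjustment. The day 3 effect exceeded the day 0 effect by 7.02 on the log2 scale for Chrna1, 7.0 for Casq2, 5.93 for Musk, 5.31 for Ryr1 and 1.56 for Chrnb1 (adjusted p = 0.00160, 0.0168, 0.0216, 7.75e-04 and 0.00107). Of these 5, Ryr1 was the gene whose fitted effect had opposite signs on the 2 days; its day 0 effect passed in the fit of day 0 alone (-0.80, adjusted p = 0.00428) but not in the fit of 14 cultures that gives the interaction (-0.79, adjusted p = 0.266). In Casq2 and Musk the day 3 controls were at the floor in every library, so the size of their fitted difference depends on the prior count. Without control day 0 replicate 2, which held 5 of the 6 Musk counts of that group, Musk (4.30, adjusted p = 0.317) and Casq2 (6.95, adjusted p = 0.0537) did not pass.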

How the results depend on the processing

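The count of 10 of 10 genes called at day 3, and in the day change of cKO cultures, was the same under every alternative run. The day 0 count of 4 ran to 6 without the filter and 5 by DESeq2, and stood between 4 and 5 with each replicate left out; the cartilage count was 0 under every alternative. The count of 5 genes called for the interaction was 9 by DESeq2 and 9 with the replicate block, under which Atp2a1, Cacna1s, Chrng and Chrnd also passed (adjusted p = 0.00819, 0.0269, 0.0147 and 0.0434), and between 3 (without control day 0 replicate 2) and 9 (without cKO day 3 replicate 4) with each replicate left out. The replicate numbers were not treated as pairing the samples: in no comparison did every same-numbered pair correlate above 0.1 in its deviations from the group means, and not every sample correlated best with its own number. The replicate block changed no other count of the 10 genes. Directions turned for log2 values that did not pass the test. With each replicate left out, the control day change of Musk ran from -3.54 to 0.34 (without control day 0 replicate 2) and that of Cacna1s from -0.99 (without control day 3 replicate 4) to 0.91. The cKO day change of Dnmt1 ran from -0.40 to 0.084 (without cKO day 3 replicate 4). The interaction of Rapsn ran from -1.15 (without control day 0 replicate 3) to 0.85, and was -0.04 without cKO day 0 replicate 3. The causes were not tested. Over all genes, calls at day 0 went from 10023 to 6260 with 14 cultures fitted together. In cartilage they went from 544 to 1044 without the filter and to 362 without cKO replicate 4. For the interaction they went from 2509 to 4051 without cKO day 3 replicate 4, and to 1604, 1591 and 1668 without cKO day 0 replicate 3, control day 0 replicate 2 and control day 0 replicate 3. Genes at the floor have no measurable fold, and in cartilage the depth limits all 10 genes.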
